A study of Mus musculus with 2 samples.

Results

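The genes described here make, move or restrain the phosphate and pyrophosphate from which bone mineral is built: Alpl, Enpp1, Ank, Phospho1, Smpd3, Slc20a1, Slc20a2, Panx3 and Mgp, 9 of the 28380 genes listed in the tables. They were picked by name from their known function, with earlier results of these data known. They were read in stromal and cartilage cells of 1 Control and 1 Dach1OE library. Of the 9 genes, 8 had at least 20 UMIs (unique molecular identifiers, which mark single captured RNA molecules) in both libraries together in the bone mesenchymal stromal cells (BMSCs) and in the chondrocytes, and Phospho1 did not.

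Both libraries held single cells of femur and tibia of C57BL/6 mice at postnatal day 30, with the haematopoietic cells depleted by CD45 and CD117 beads, and were made with the BD Rhapsody system. The Control genotype was Dach1OE +/f and the Dach1OE genotype was Apj CreERT2 - Dach1OE +/f, so that both groups carried the conditional Dach1 transgene and both received tamoxifen. The Cre in the Dach1OE mice was driven by Aplnr (Apj), a gene of the capillary endothelium, and each library pooled a pair of mice of both sexes. Dach1 had a level of 4.96 in Control and 205 in Dach1OE endothelial cells, in UMIs per 1000000 UMIs of that group of cells (CPM), against 3.43 and 3.89 in BMSCs and 2.54 and 3.05 in chondrocytes. It was also higher in Dach1OE smooth muscle cells or pericytes (5.21 and 27.4), fibroblasts (2.82 and 11.7) and haematopoietic cells (34.4 and 48.1).

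The tables held 28720 and 32028 cells with 143986818 and 166999989 UMIs, and 26466 and 29317 cells were kept. Of the cell indices, 1049 occurred in both tables (879 among kept cells, 3.3% and 3.0% of them). Clusters were named from marker genes, with the genes described here left out of the clustering, and a name means a cluster like that type. The BMSCs (5355 and 4335 cells) divided into osteoblast-like, osteocyte-like, septoclast-like and proliferating cells, metaphyseal stromal cells (mpMSC-like) and diaphyseal stromal cells (dpMSC-like). The osteoblast marker Bglap was 18.8-fold and 11.7-fold higher in osteoblasts than in the other BMSCs, and Dmp1 30.9-fold and 27.1-fold higher in osteocytes. Wif1 was 8.98-fold and 8.63-fold higher in mpMSCs and Lepr 16.7-fold and 18.7-fold higher in dpMSCs. Some listed markers went otherwise, with Ibsp at 0.92-fold and 0.91-fold in osteoblasts and Tnc at 0.0089-fold and 0.012-fold in osteocytes. Mepe in osteocytes was 7.57-fold in Control and 0.93-fold in Dach1OE. The septoclast name rested on 3 markers, among them Mmp9 (249-fold and 209-fold higher), while its marker Cyp24a1 had 0 UMIs there in both libraries. The chondrocytes (3406 and 4702 cells) divided into 7 clusters described here and an unnamed cluster 7 of low depth (138 and 156 cells, median of 1439.5 UMIs), which counts in the values over all chondrocytes only. Of the 7, cluster 4 was proliferating, cluster 3 prehypertrophic by Ihh (2.41-fold in both libraries) and clusters 6 and 9 hypertrophic by Col10a1 and Mmp13, and clusters 0, 1 and 2 stayed unnamed. Cluster 2 had 2 hypertrophic markers, Col10a1 and Ibsp, where a name took at least 3. Sp7, another listed prehypertrophic marker, was at 0.95-fold and 0.98-fold in cluster 3.

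Mineral forms where phosphate is high and pyrophosphate, which blocks crystal growth, is low. Enpp1 makes pyrophosphate from ATP, Ank lets it or ATP out of the cell, and Alpl (tissue-nonspecific alkaline phosphatase) splits it into phosphate. Inside matrix vesicles, the small membrane sacs in which the first crystals appear, the sphingomyelinase Smpd3 frees phosphocholine and the phosphatase Phospho1 takes phosphate from it, while Slc20a1 and Slc20a2 (PiT1 and PiT2) carry phosphate across the membrane, Panx3 forms a channel that releases ATP, and the carboxylated protein Mgp binds calcium and keeps cartilage and vessels from calcifying.

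Among the members, Enpp1 and Ank, the genes of pyrophosphate supply, were higher together in Dach1OE mpMSCs, though by less than 1.5-fold under some processing alternatives given below. The promoter windows of this pair are shown for that reason, each the 250 bases before the start of the gene in RefSeq on GRCm38.p6, 5′ to 3′ on the strand of the gene. Capitals mark the GC box (GGGCGG on either strand), which overlaps itself in the window of Ank. The window of Enpp1 is chr10:24712160-24712409 on the minus strand and that of Ank is chr15:27466427-27466676 on the plus strand.
Enpp1: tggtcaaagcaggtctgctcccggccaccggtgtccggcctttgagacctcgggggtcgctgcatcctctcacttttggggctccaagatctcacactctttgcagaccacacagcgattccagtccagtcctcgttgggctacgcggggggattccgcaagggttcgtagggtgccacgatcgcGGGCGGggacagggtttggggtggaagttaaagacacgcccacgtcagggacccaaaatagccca
Ank: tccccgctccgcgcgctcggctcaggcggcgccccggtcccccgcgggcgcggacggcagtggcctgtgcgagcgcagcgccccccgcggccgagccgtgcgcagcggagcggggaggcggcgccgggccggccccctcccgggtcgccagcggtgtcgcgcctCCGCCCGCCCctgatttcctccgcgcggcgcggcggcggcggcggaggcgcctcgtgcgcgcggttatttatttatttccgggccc
The window of Enpp1 had a GC content of 61.2%, with 1 GC box and 1 RUNX motif (TGTGGT on either strand), and that of Ank had 81.2%, with 2 GC boxes and no RUNX motif. Over all 32851 promoter windows of the same length, 32.7% held a GC box and 14.05% the RUNX motif, so that the GC box is common and a match describes the letters only. Windows of 5 of the 9 genes were in the table used, those of Alpl, Enpp1, Ank, Phospho1 and Slc20a1.

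On GRCm38 (GENCODE vM21), Alpl lies at chr4:137741733-137796384 (minus strand), Enpp1 at chr10:24637914-24712159 (minus), Panx3 at chr9:37659902-37669235 (minus) and Mgp at chr6:136872435-136875823 (minus), and no other gene overlaps these. Ank lies at chr15:27466677-27594909 (plus) and overlaps Otulin on the other strand and short models on its own, Slc20a2 at chr8:22476788-22569612 (plus) overlaps the 5′ start of Smim19 on the other strand and holds the intronic Gm17491, Slc20a1 at chr2:129198764-129211616 (plus) overlaps a pair of non-coding models on the other strand, and Smpd3 at chr8:106252548-106337988 (minus) overlaps the end of Prmt7 and the non-coding Gm26786 and Gm10629. Phospho1 at chr11:95824499-95832140 (plus) lies inside Zfp652 on the same strand and shares 2067 bases with Abi3 on the other strand. The sources used here do not say if reads were assigned by strand, and intronic reads were counted, so that the values of the overlapping genes are uncertain to that degree. Strand would not separate Phospho1 from Zfp652, nor Smpd3 from Gm26786, which spans all of Smpd3 on the same strand.

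No test between the libraries was possible, as each group had 1 of them. The intervals given (95%, exact Poisson for levels and exact binomial for ratios) cover counting error only. A log2 ratio is always Dach1OE over Control, levels are in CPM, and they are compared only within a gene. As a rough guide to free RNA, each level was read beside that of the remaining haematopoietic cells (1962 and 2130 cells). In these the measured members other than Mgp were at 10.7 to 51.2 in Control and 7.68 to 55.6 in Dach1OE, and Mgp at 119 and 120. Whether these cells express the members themselves was not tested. Their median depth of 3954 and 3734.5 UMIs also differed from that of other groups, such as osteoblasts with 7622 and 7705.

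**Figure D1:**
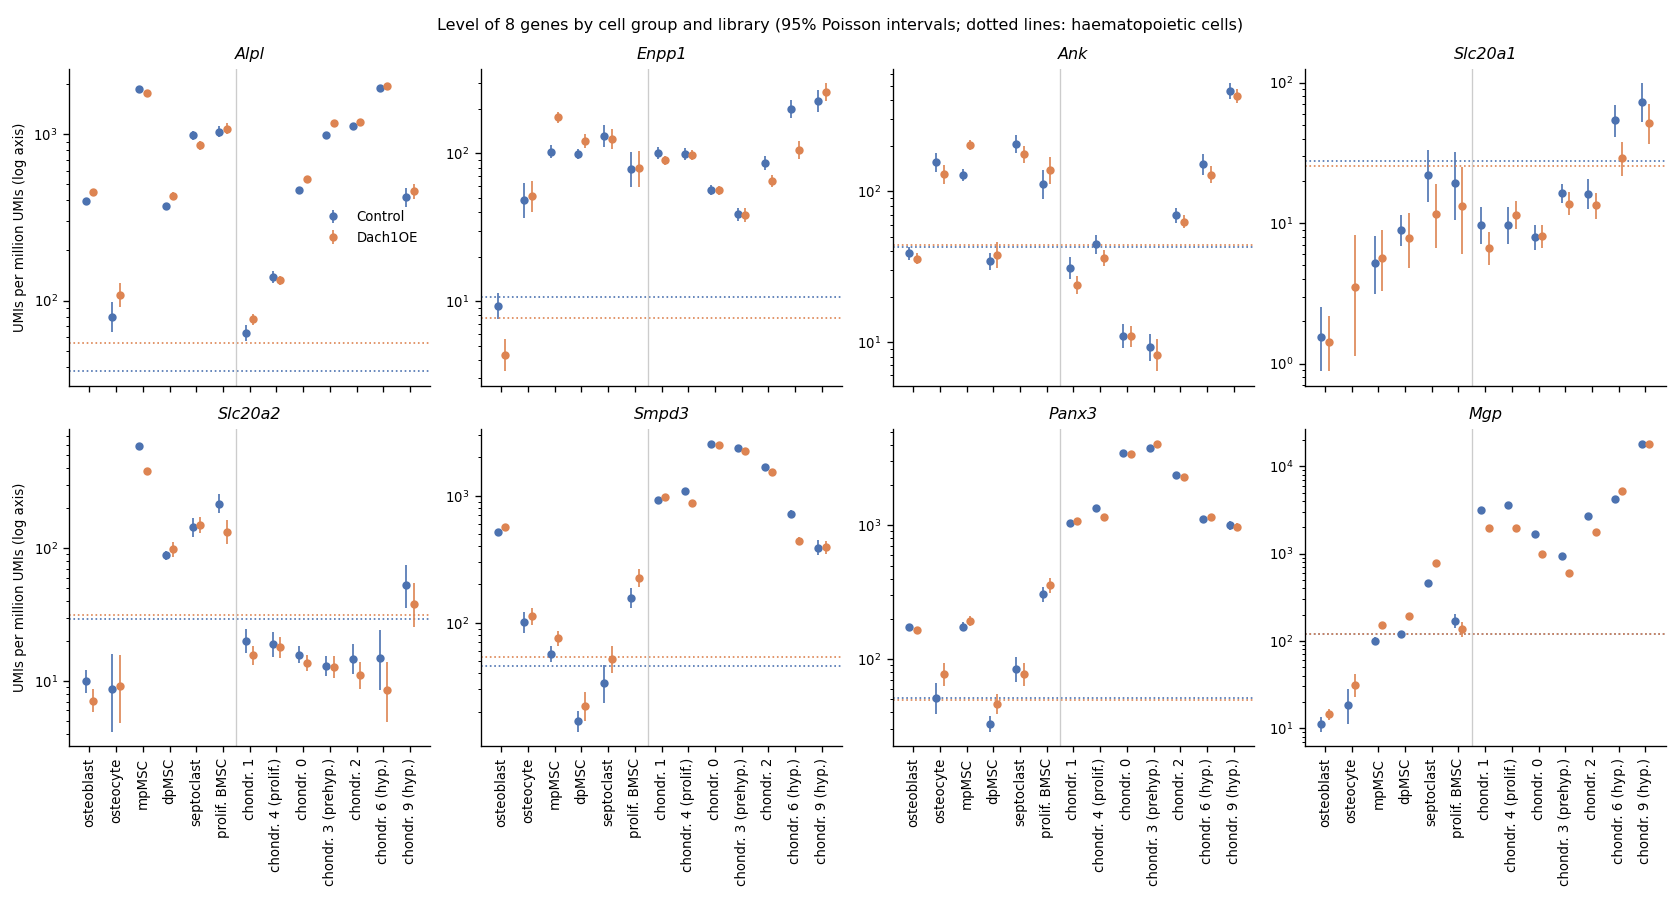
Level of the 8 measured genes (CPM, log axis) in 6 BMSC subtypes and 7 chondrocyte clusters of the Control (blue) and Dach1OE (orange) libraries, with 95% Poisson intervals for counting error and the level in haematopoietic cells as dotted lines. Slc20a2 was highest in mpMSCs at 586 and 380, Smpd3 and Panx3 were high in chondrocytes, and the osteocyte point of Slc20a1 in Control is at 0 and is not drawn.

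Alpl, the enzyme that removes pyrophosphate, differed little between the libraries in stromal and cartilage cells. It was at 645 in Control and 635 in Dach1OE BMSCs (log2 ratio -0.02, interval -0.05 to 0.01) and at 630.5 and 643 in chondrocytes (0.03, 0.00 to 0.05). In no BMSC subtype or chondrocyte cluster did it pass 1.5-fold, and its ratios there lay between -0.20 in septoclasts and 0.44 in osteocytes. The order of its levels in BMSCs was the same in both libraries. Alpl was highest in mpMSCs at 1856 and 1777, followed by proliferating BMSCs at 1036 and 1079, septoclasts at 984 and 856, osteoblasts at 396 and 448, dpMSCs at 368 and 426, and osteocytes at 79.8 and 108. The intervals of proliferating cells and septoclasts overlapped in Control, and those of osteoblasts and dpMSCs in Dach1OE.

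Thinned to 1000 UMIs per cell, 73.4% of Control and 72.8% of Dach1OE mpMSCs had an Alpl UMI, against 29.8% and 31.5% of osteoblasts and 2.67% and 3.47% of haematopoietic cells. Without thinning the osteoblast shares were 81.7% and 87.1%, since osteoblasts had the deeper libraries (medians of 7622 and 7705 UMIs against 3065 and 3072 in mpMSCs). The mpMSCs held 44.7% of the Alpl UMIs of Control BMSCs and 35.4% of those of Dach1OE, and osteoblasts held 26.8% and 43.4%. In cartilage Alpl ran from 63.8 and 77.1 in cluster 1 and 139 and 132 in the proliferating cluster 4 up to 994.5 and 1164 in prehypertrophic cluster 3 and 1895 and 1959 in hypertrophic cluster 6. Hypertrophic cluster 9, marked by Mmp13 and Spp1, had less of it at 417 and 454.

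In endothelial cells Alpl stayed below its level in the haematopoietic cells of the same library, which was 37.6 in Control and 55.6 in Dach1OE (0.56, 0.37 to 0.76). The endothelial level was 15.2 in Control (13.9 to 16.7) and 48.8 in Dach1OE (46.3 to 51.3), a log2 ratio of 1.68 (1.53 to 1.83). Cells with Xist were at 15.1 and 51.4 and cells with Y-linked UMIs at 13.8 and 44.7. The share of thinned endothelial cells with an Alpl UMI was 1.47% in Control and 4.25% in Dach1OE. By this share, unlike by level, Dach1OE endothelial cells lay above the haematopoietic cells of their library, while Control endothelial cells lay below. The summed levels of markers of other cells in endothelial cells were 1417 and 2153 for the 9 BMSC markers, 1126 and 1598 for the 7 chondrocyte markers and 624 and 950.3 for the 7 fibroblast markers, with none at 0, and their part in the Alpl difference was not tested. Among the 8 measured members, 2 passed 1.5-fold in endothelial cells, Alpl and Ank, where 18.7% of all genes did. Ank, the pyrophosphate exporter, was at 26.1 and 48.3 there (0.89, 0.76 to 1.02), with ratios of 0.63 in cells with Xist and 1.39 in cells with Y-linked UMIs. Its haematopoietic level was 42.8 and 43.8, above the endothelial level of Control and a little below that of Dach1OE. The make-up of the endothelial cells differed between the libraries. The largest endothelial cluster had 6144 Control and 1307 Dach1OE cells, and a cluster with Dach1 among its top genes had 110 and 4912. The part of these shares in the endothelial ratios of Alpl and Ank was not tested.

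Enpp1 and Ank, which supply extracellular pyrophosphate, differed between the libraries in mpMSCs, the stromal cells next to the growth plate that also had the highest Alpl level of the BMSC subtypes. Enpp1 was at 102 in Control (92.3 to 113) and 175 in Dach1OE (160 to 190), a log2 ratio of 0.77 (0.58 to 0.97). Ank was at 127 (116 to 139) and 202 (187 to 219), a ratio of 0.67 (0.49 to 0.85). The Control and Dach1OE intervals did not overlap for either gene. Among cells with Xist Enpp1 was at 93.8 and 175.5 and among cells with Y-linked UMIs at 75.9 and 166, and Ank was at 130 and 194 and at 127.5 and 243. Since each library pooled a pair of mice of both sexes, each sex is taken to stand for 1 mouse, though no tag marks a mouse. Both Dach1OE values lay above both Control values. Cells with neither or both kinds of UMIs, 10586 of 26466 kept cells of Control and 12527 of 29317 of Dach1OE, are left out of all values by sex, which cover 436 and 184 of the 1106 Control mpMSCs and 290 and 175 of the 880 Dach1OE mpMSCs. For Enpp1 in Control both of these values lay below the 102 of all mpMSCs. Its ratio over all mpMSCs was smaller than in either sex, so that the cells left out had a smaller difference. Both clusters that make up the mpMSCs were higher in Dach1OE, cluster 2 with ratios of 0.82 for Enpp1 and 0.68 for Ank and cluster 6 with 1.46 and 1.05. Cluster 2 held most of the UMIs of both genes. Cluster 6 (214 and 229 cells) rests on few of them, and its Control levels lay below those of all mpMSCs. At resolution 0.8 an mpMSC cluster of 390 Control and 307 Dach1OE cells had both genes among its top 10. Across the processing alternatives the ratio in mpMSCs ran from 0.50 to 1.35 for Enpp1 and from 0.26 to 1.04 for Ank. It fell short of 1.5-fold for Enpp1 with cells named one by one (0.50) and at resolution 0.2 (0.51), and for Ank under both of these (0.26 and 0.43), at resolution 0.8 (0.58) and in cells with Xist (0.58). The summed fibroblast markers in mpMSCs were at 633 and 897 and the summed chondrocyte markers at 1407 and 1861, and their part in these differences was not tested. The levels in fibroblasts were lower in Dach1OE, at 134 and 97.0 for Enpp1 and 130 and 107 for Ank.

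In mpMSCs, 4 of the 8 measured members passed 1.5-fold, 3 of them upward, where 11.3% of all genes did. The others past it were Mgp, at 98.6 and 150.5 and so near its level in haematopoietic cells, and Slc20a2, which was lower. The median ratio of the members was 0.28 and that of all genes -0.04.

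**Figure D2:**
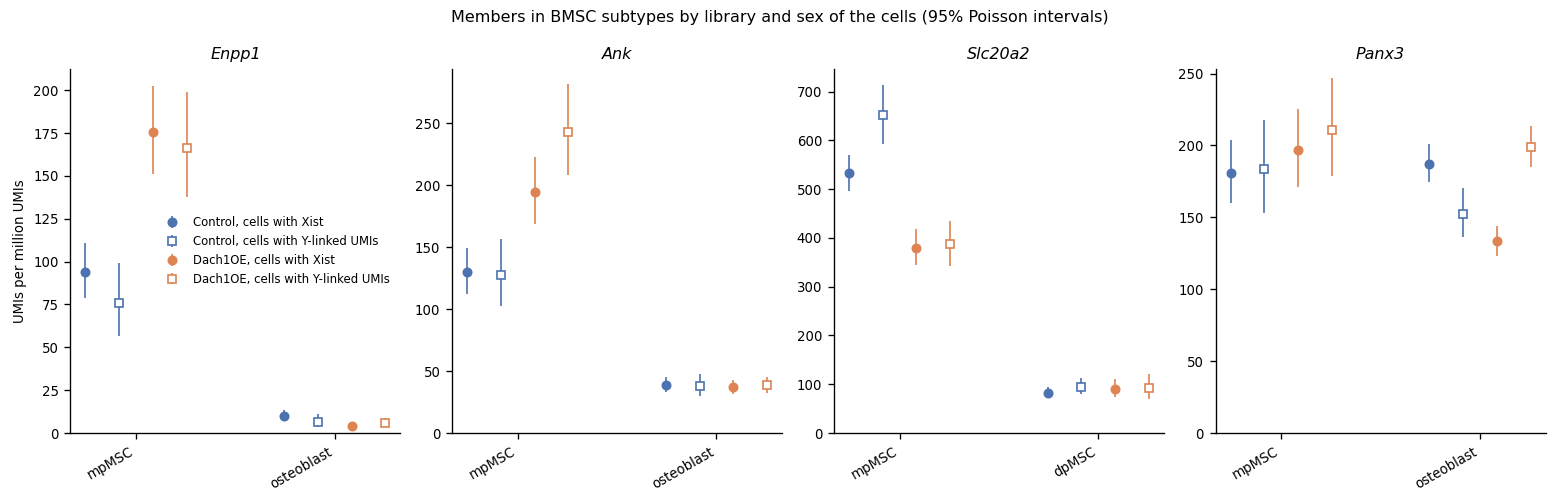
Levels (CPM, linear axes from 0, 95% Poisson intervals) of Enpp1, Ank, Slc20a2 and Panx3 in cells with Xist (filled circles) and cells with Y-linked UMIs (open squares) of the Control (blue) and Dach1OE (orange) libraries. In mpMSCs both Dach1OE points lie above both Control points for Enpp1 and Ank and below them for Slc20a2, and Panx3 in osteoblasts differs in opposite directions by sex. The share of osteoblasts in the cluster with the higher Panx3 level also differed in opposite directions by sex, and its part was not tested.

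Dach1OE was not higher by 1.5-fold for either pyrophosphate gene in the other BMSC subtypes described here. In dpMSCs, the Lepr-positive marrow stromal cells, Enpp1 was at 98.8 and 121 (0.29, 0.10 to 0.49) and Ank at 34.2 and 37.8. Septoclasts had the highest Ank of the BMSCs in Control at 207, against 176 in Dach1OE (-0.23, -0.50 to 0.04), and Enpp1 at 131 and 125. Osteocytes were at 155 and 130 for Ank and 48.6 and 51.3 for Enpp1, and neither interval of the ratio excluded 0.

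Osteoblasts held little Enpp1, with 96 UMIs in Control and 64 in Dach1OE, a level of 9.31 and 4.35 (-1.10, -1.58 to -0.63). In cells with Xist the ratio was -1.35 (-2.23 to -0.52) on 42 and 18 UMIs, and in cells with Y-linked UMIs -0.17 (-1.20 to 0.91) on 14 and 22, short of 1.5-fold. The summed fibroblast markers in osteoblasts were at 101 and 70.96, and their part was not tested. Both levels were below the haematopoietic 10.7 and 7.68. Of the osteoblast clusters, cluster 3 held 84 and 44 of these UMIs, at 19.2 in Control and 7.19 in Dach1OE (-1.42, -1.98 to -0.88), so that its Control level was above the haematopoietic one. Cluster 1 was at 2.02 and 2.32. Enpp1 was the only 1 of the 8 measured members past 1.5-fold in osteoblasts, where 9.76% of all genes were. Over all BMSCs Enpp1 was at 58.6 and 50.9 (-0.20, -0.32 to -0.09), and the dpMSCs, which held 47.9% of its Control UMIs, went from 44.5% to 21.8% of the BMSCs. When all subtypes were given equal weight, the ratio was 0.25.

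In the cartilage Enpp1 and Ank were highest in the hypertrophic clusters. Cluster 9 had Enpp1 at 227 and 259 and Ank at 461 and 429, with no ratio past 1.5-fold. Cluster 6 had Enpp1 at 199 (173 to 228) and 105 (91.1 to 121), a ratio of -0.92 (-1.21 to -0.63), with -0.57 in cells with Xist and -0.97 in cells with Y-linked UMIs. The ratio in cells with Xist was short of 1.5-fold, and only 25 Control cells there had Y-linked UMIs. Ank there was at 151 and 129 (-0.23, -0.52 to 0.07). Over all chondrocytes both genes were level, Enpp1 at 72.4 and 71.4 and Ank at 34.6 and 34.9. Ank was at 11.01 and 10.9 in cluster 0 and 9.27 and 8.24 in cluster 3, below the haematopoietic level, and at 69.1 and 62.9 in cluster 2, above it. The hypertrophic clusters 6 and 9 held 12.8% and 20.8% of the Ank UMIs of Control chondrocytes and 14.3% and 19.3% of those of Dach1OE, and cluster 2 held 21.5% and 25.1%.

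Phospho1, the phosphatase of the vesicle route, was hardly counted. It had 1 UMI in Control and 5 in Dach1OE BMSCs, and 10 and 7 in chondrocytes. In endothelial cells it had 0 UMIs, which allows a level of up to 0.101 in Control and 0.0989 in Dach1OE. Abi3, which lies across its 3′ end on the other strand, had 42 and 47 UMIs in BMSCs and 38 and 82 in chondrocytes. A difference of Phospho1 between the libraries was not detectable with these counts, and the part of its overlap with Zfp652 in them was not tested.

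Smpd3, the neutral sphingomyelinase that feeds the same route, marked osteoblasts among the BMSCs. It was at 519 (505 to 533) in Control and 570 (558 to 583) in Dach1OE osteoblasts (0.14, 0.09 to 0.19), and osteoblasts held 90.1% and 92.6% of the Smpd3 UMIs of BMSCs. Osteocytes had 101 and 112, mpMSCs 56.8 and 75.6 and dpMSCs 16.9 and 22.3, the last of these below the haematopoietic 45.3 and 53.2. Over all BMSCs Smpd3 was at 252 and 379 (0.59, 0.54 to 0.64), 1.51-fold higher in Dach1OE and so just past 1.5-fold. Osteoblasts made up 24.97% of Control and 43.2% of Dach1OE BMSCs and 43.7% and 61.5% of their UMIs. With the subtype shares of Control given to both libraries, the ratio was 0.16.

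Chondrocytes carried more Smpd3, at 1924 and 1688 (-0.19, -0.20 to -0.17). The peak was in clusters 0 (2547 and 2500) and 3 (2360 and 2233), and the level was lower at 724 and 438 in hypertrophic cluster 6 and 389.5 and 392 in cluster 9. In cluster 6 the ratio was -0.72 (-0.87 to -0.58), with -1.02 in cells with Xist and -0.80 in cells with Y-linked UMIs (25 cells in Control), so that Dach1OE was lower within each sex. In 5 of the 7 clusters it lay between -0.13 and 0.07, and in cluster 4 at -0.32. Cluster 3 held 27.1% of the chondrocyte UMIs in Control and 16.8% in Dach1OE. Cluster 1, with Smpd3 at 927 and 972, held 12.8% and 18.1%. With equal weights of the clusters the ratio was -0.12, and the part of these shares in the pooled -0.19 was not tested.

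Of the phosphate carriers, Slc20a2 was a gene of the mpMSCs. It was at 586 (562 to 612) in Control and 380 (358 to 402) in Dach1OE mpMSCs, a ratio of -0.63 (-0.73 to -0.52). Cells with Xist were at 532 and 380 and cells with Y-linked UMIs at 652 and 387, and the ratio lay between -0.49 and -1.02 across the processing alternatives. It was short of 1.5-fold in cells with Xist (-0.49) and with cells named one by one (-0.55). Both mpMSC clusters were lower, cluster 6 from 904 to 528 and cluster 2 from 469 to 307. Proliferating BMSCs were at 216 and 133 (-0.70, -1.09 to -0.32), while the intervals of the ratio included 0 in dpMSCs (88.1 and 97.6) and septoclasts (143 and 149). The mpMSCs held 68.0% and 63.0% of the Slc20a2 UMIs of BMSCs, and over all BMSCs the gene was at 134 and 76.3 (-0.81, -0.89 to -0.73). With the subtype shares of Control given to both libraries that ratio was -0.41, short of 1.5-fold. Osteoblasts at 9.99 and 7.13 and chondrocytes at 16.4 and 14.3 were below the haematopoietic 29.0 and 31.5, and of the chondrocyte clusters cluster 9, at 52.4 and 38.1 on 30 and 29 UMIs, was above it in both libraries.

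Slc20a1, the other carrier, was scarce. Over all BMSCs it had 132 and 89 UMIs, a level of 5.59 and 3.72 (-0.59, -0.99 to -0.19), and all BMSC subtypes and chondrocyte clusters 0 to 4 lay below the haematopoietic 27.5 and 25.4. It exceeded that level in both libraries in the hypertrophic clusters, cluster 9 with 73.4 and 51.3 (-0.52, -1.18 to 0.15) and cluster 6 with 54.0 and 28.9 (-0.90, -1.47 to -0.34).

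Over all BMSCs, 3 of the 8 measured members passed 1.5-fold, Smpd3 upward and Slc20a1 and Slc20a2 downward, where 18.5% of all genes did, and Slc20a1 was 1.504-fold lower and as close to the limit as Smpd3. The median of all genes over BMSCs was -0.21, that of the members 0.06, and scaling by trimmed means (TMM) moved every ratio over BMSCs up by 0.21. The shares of osteoblasts and dpMSCs, which differ between the libraries, go into these pooled values, and within a BMSC subtype the shift of TMM was at most 0.05.

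**Figure D3:**
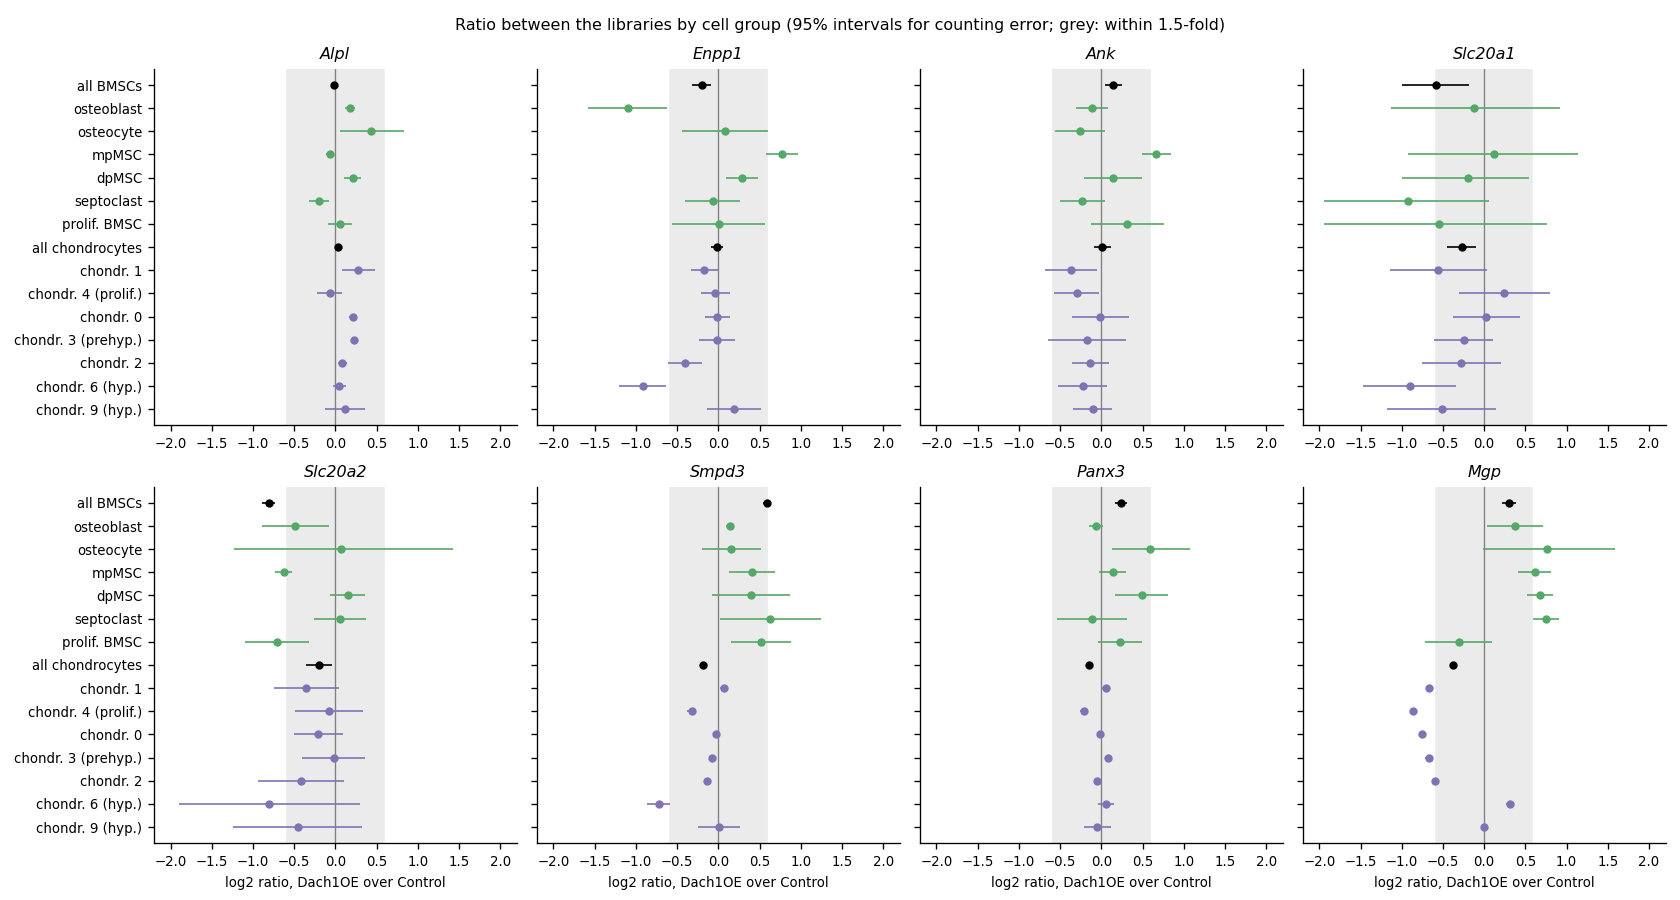
Log2 ratio of the level in Dach1OE over Control for the 8 measured genes over all BMSCs and all chondrocytes (black), BMSC subtypes (green) and chondrocyte clusters (violet), with 95% intervals for counting error and the range within 1.5-fold in grey. Enpp1 and Ank lie to the right in mpMSCs, Slc20a2 to the left in mpMSCs, and Mgp to the left in chondrocyte clusters 0 to 4.

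Panx3, the ATP channel of maturing cartilage and bone cells, had its highest levels in chondrocytes, at 2748 and 2482 (-0.15, -0.16 to -0.13), with 3809 and 4043 in prehypertrophic cluster 3 and 3443 and 3415 in cluster 0. Its ratios in the 7 clusters lay between -0.21 and 0.09. With equal weights of the clusters the ratio was -8.03e-05, and the part of the cluster shares in the pooled -0.15 was not tested. Of the thinned cells of cluster 3, 94.9% and 96.0% had a Panx3 UMI, against 3.30% and 3.81% of haematopoietic cells. Over 26 points (13 subtypes in both libraries) the log2 levels of Panx3 and Smpd3 ran together with Pearson r = 0.92, a description in which the points share libraries and depth.

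In osteoblasts Panx3 was at 173 (165 to 181) and 165 (159 to 172), a ratio of -0.06 (-0.15 to 0.03). The value hides opposite differences by sex, since cells with Xist went from 187 to 133 (-0.49, -0.65 to -0.34) and cells with Y-linked UMIs from 152.5 to 199 (0.38, 0.19 to 0.57). The 4 values do not separate the libraries, as both Control values lay between the Dach1OE values. The osteoblast clusters also differed from each other, cluster 3 at 366 and 342 and cluster 1 at 30.6 and 40.1, the latter below the haematopoietic 51.2 and 49.9. Cluster 3 held 234 of 526 Control and 211 of 583 Dach1OE osteoblasts with Xist. Of those with Y-linked UMIs it held 113 of 259 and 233 of 457. The part of these shares in the values by sex was not tested. The mpMSCs were at 175 and 192 and proliferating BMSCs at 305 and 356, and over all BMSCs the level was 128 and 151 (0.24, 0.17 to 0.31).

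Mgp, the calcification inhibitor, showed the broadest difference in cartilage. It was lower in Dach1OE in each of the chondrocyte clusters 0 to 4: 3161 and 1991 in cluster 1 (-0.67), 3594 and 1967 in the proliferating cluster 4 (-0.87), 1666 and 991 in cluster 0 (-0.75), 943 and 594 in prehypertrophic cluster 3 (-0.67) and 2686 and 1781 in cluster 2 (-0.59), with the widest interval from -0.72 to -0.62 in cluster 3. The clusters named hypertrophic went otherwise, cluster 6 with 4202 and 5219 (0.31, 0.26 to 0.36) and cluster 9, the highest of all, with 17945 and 17923 (0.00, -0.04 to 0.04). Cluster 2, which was lower, also had the hypertrophic markers Col10a1 and Ibsp. At resolution 0.2 a cluster of 1189 cells with these and Spp1 took the hypertrophic name, so that the division depends on the naming. Over all chondrocytes Mgp was at 2334 and 1791 (-0.38, -0.40 to -0.37).

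By sex, Mgp was lower in all 5 clusters in both kinds of cells, with ratios of -0.89 to -1.17 in cells with Xist and -0.35 to -0.45 in cells with Y-linked UMIs. In cluster 4 cells with Xist were at 4275 in Control and 1899 in Dach1OE and cells with Y-linked UMIs at 2671 and 2049. The Control values by sex differed from each other in these clusters, and the Dach1OE values lay closer together and below both. Pooled over clusters 0 to 4 the ratio was -0.95 in cells with Xist and -0.11 in cells with Y-linked UMIs, and pooled over all chondrocytes -0.74 and 0.01. Among the cells with Y-linked UMIs, cluster 1, where Mgp is high, went from 124 of 992 to 421 of 1798 cells and the hypertrophic cells from 51 to 125, and the part of these shares in the pooled values was not tested.

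**Figure D4:**
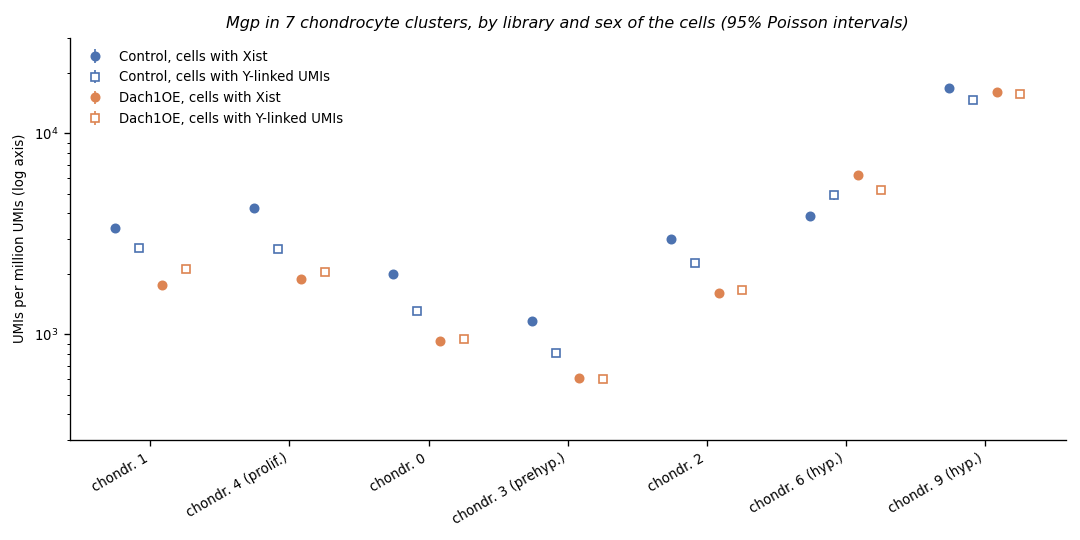
Level of Mgp (CPM, log axis) in the 7 chondrocyte clusters, for cells with Xist (filled circles) and cells with Y-linked UMIs (open squares) of the Control (blue) and Dach1OE (orange) libraries, with 95% Poisson intervals smaller than most symbols. In clusters 0 to 4 both Dach1OE points lie below both Control points, and in hypertrophic clusters 6 and 9 they do not.

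In the chondrocytes as a whole 0 of the 8 measured members passed 1.5-fold, where 11.1% of all genes did. Mgp was the 1 member past it in each of cluster 1 (10.5% of all genes), cluster 4 (10.6%), cluster 0 (10.1%), cluster 3 (10%) and cluster 2 (11%). In cluster 2 it was 1.51-fold lower, and the TMM shift of 0.05 took it short of 1.5-fold. In cells with Y-linked UMIs alone the ratio was short of 1.5-fold in all 5 clusters. In cluster 6 there were 4, all lower in Dach1OE, namely Enpp1, Smpd3, Slc20a1 and, on 16 UMIs in either library, Slc20a2, where 18.1% of all genes passed, and in cluster 9 there were 0 with 21%. Enpp1 in cluster 6 was short of 1.5-fold in cells with Xist.

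Among the BMSC subtypes Mgp had its highest level in septoclasts, at 460 in Control and 771 in Dach1OE septoclasts (0.74, 0.59 to 0.90), with 421 and 611 in cells with Xist and 422 and 725 in cells with Y-linked UMIs. The septoclasts held 25.2% and 44.4% of the Mgp UMIs of BMSCs, and the more numerous dpMSCs 42.2% and 21.7%. The summed chondrocyte markers in septoclasts were at 763 and 1159, the summed smooth muscle and pericyte markers at 1886 and 2359, and Mgp in smooth muscle cells or pericytes was at 1755 and 2374, and the part of such cells was not tested. In dpMSCs Mgp was at 120 and 191 (0.68, 0.51 to 0.84), in Control at the haematopoietic level of 119, and the summed chondrocyte markers there were at 1164 and 1784, whose part was not tested. Osteoblasts (11.1 and 14.3) and osteocytes (18.2 and 30.9) lay well below that level. Fibroblasts had 1428 and 947 (-0.59, -0.66 to -0.52).

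The other subtype counts were small. In dpMSCs Mgp was the 1 member of 8 past 1.5-fold (10.1% of all genes), in septoclasts there were 3 of 8 (15.4%), Mgp and Smpd3 higher and Slc20a1 lower. There Smpd3, at 33.7 and 51.9 on 35 and 71 UMIs, and Slc20a1, on 23 and 16 UMIs with an interval of the ratio from -1.94 to 0.06, were both below their haematopoietic levels. In proliferating BMSCs Slc20a2 was the 1 of 8 (20%). In osteocytes Panx3 and Mgp were the 2 of 7 (17.4%), with Panx3 at 51.2 and 77.3 on 59 and 110 UMIs, beside the haematopoietic 51.2 and 49.9, and Mgp below the haematopoietic level in both libraries. The Panx3 ratio (1.51-fold) was short of 1.5-fold with TMM scaling, and the interval of the Mgp ratio included 0 (-0.02 to 1.59).

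Members were also counted that differed at least 2-fold, in the same direction in both libraries, between a subtype and the other BMSCs. The count leaves out members whose place differed between the libraries, such as Slc20a2 in dpMSCs, with a log2 ratio to the other BMSCs of -0.79 in Control and 0.41 in Dach1OE. By this count mpMSCs had 4 of 8 higher (Alpl, Enpp1, Ank and Slc20a2), where 6.45% of all genes were, and Smpd3 lower (4.52%). Slc20a2 was 586 against 50.6 in the other BMSCs of Control and 380 against 32.3 in those of Dach1OE. Osteoblasts had only Smpd3 higher (3.74%), at 519 against 44.1 and 570 against 73.3, and 6 lower (Alpl, Enpp1, Ank, Slc20a1, Slc20a2 and Mgp). Of all genes 38.7% were lower in osteoblasts, and TMM scaling moved the osteoblast ratios up by 0.74 and 0.81, so that Alpl, with log2 ratios of -1.08 and -1.06, and Ank, at -1.19 in Control, did not keep a 2-fold difference under it and Panx3 gained one upward. In mpMSCs the shift was -0.41 and -0.60, under which Enpp1, at 1.02 in Control, and Ank, at 1.20, did not keep it either.

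The remaining groups had other members. Osteocytes had 0 higher (3.15%) and 5 lower (18.6%), Alpl, Smpd3, Slc20a2, Panx3 and Mgp. Higher in dpMSCs were Enpp1 and Slc20a1 (19%), with Ank, Smpd3 and Panx3 lower (7.84%). Septoclasts were higher in Enpp1, Ank, Slc20a1 and Mgp (8.68%) and lower in Smpd3 (7%). Proliferating BMSCs were higher in Slc20a1, on 14 and 9 UMIs, and Panx3 (7.71%), with 0 lower (5.42%). In cartilage, cluster 1 had 0 higher (1.83%), with Alpl and Panx3 lower (5.11%), and the same 2 were lower in the proliferating cluster 4 (3.96%), with 0 higher (6.25%). Cluster 0 had 0 higher (0.0981%) and Ank lower (6.07%), and cluster 2 had Ank higher (1.32%) and 0 lower (4.39%). The prehypertrophic cluster 3 was higher in Alpl (1.79%) and lower in Enpp1, Ank and Mgp (5.77%). Hypertrophic cluster 6 was higher in Alpl, Ank and Slc20a1 (5.5%) and lower in Smpd3 and Panx3 (18.1%). Cluster 9 was higher in Enpp1, Ank, Slc20a1, Slc20a2 and Mgp (19.3%) and lower in Smpd3 and Panx3 (12.5%). Many of the Slc20a1 values here were below the haematopoietic level. With TMM scaling the higher calls of Enpp1 and Slc20a1 in dpMSCs, of Enpp1 and Ank in septoclasts and of Slc20a2 in cluster 9 were lost, as were the lower calls of Panx3 in osteocytes and Enpp1 in cluster 3. Lost too was the higher call of Panx3 in proliferating BMSCs. Ank in osteocytes, Mgp in cluster 6 and Alpl in cluster 2 became higher by 2-fold, and Alpl in dpMSCs and cluster 9, Panx3 in septoclasts and Smpd3 in clusters 1 and 4 lower.

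Among 10759 genes with at least 500 UMIs in these cells, the log2 levels over the same 26 points were closest to Alpl for Adam15 (r = 0.84), Chmp3 and Ebp, and to Enpp1 for Psmd11 (0.89), Ythdc1 and Sntb2. For Ank they were Arhgef2 (0.90), Ntn4 and Rhoc, for Slc20a1 Wsb1 (0.91), Sdcbp and Ube2d3, and for Slc20a2 Kif1c (0.95), Snw1 and Nudt4. Smpd3 ran closest to P4ha2 (0.96), a collagen prolyl hydroxylase, with Kif21a, Panx3 to Capn6 (0.97), Ivns1abp and Crispld1, and Mgp to Prnp (0.95), Cdc42se1 and Nkx6-1. Phospho1, with 23 UMIs in these cells, reached 0.60 with Lrrc27, followed by Slc6a2 and Pter. These values describe the points, which share libraries and depth, and the highest of many r is high by choice.

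The wider pathway, a list of 33 other genes of phosphate, pyrophosphate, phosphocholine and carboxylation, was mostly level. Of the 30 measured in BMSCs, 1 was past 1.5-fold upward (Abcc6, on 18 and 29 UMIs) and 2 downward, with a list median of 0.02, beside 18.5% and -0.21 for all genes. The 2 lower genes were Enpp3, a nucleotide pyrophosphatase, at 29.5 and 15.0 (-0.97), and Panx1, another pannexin, at 17.5 and 9.86 (-0.83). In dpMSCs Enpp3 was at 78.7 and 76.4 and in osteoblasts at 1.26 and 0.951. Panx1 in dpMSCs was at 37.8 and 21.5. Sgms2, a sphingomyelin synthase, was at 484 and 664 (0.46) over BMSCs and 898 and 935 in osteoblasts. Chkb, a choline kinase, was at 10.7 and 7.40 (-0.54) and Smpd2, another sphingomyelinase, at 9.11 and 6.85 (-0.41).

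Of the 29 list genes measured in osteoblasts, 1 passed 1.5-fold upward (Smpd4, on 26 and 76 UMIs) and 0 downward, with a median of -0.05. Of the 30 in chondrocytes 0 passed in either direction, with a median of -0.12 and -0.02 for all genes. Among the list genes with at least 100 UMIs, the largest ratios there were those of Galnt3, which glycosylates the phosphate hormone Fgf23, at 4.26 and 6.01 (0.50), and of the choline phosphodiesterase Enpp6 at 2.51 and 3.44 (0.45). Smpd1 was at 17.1 and 13.99 (-0.29), Panx1 at 3.77 and 3.17 (-0.25) and Sgms2 at 899 and 760 (-0.24). Below 100 UMIs, Abcc6 had -0.54 on 11 and 10 UMIs and Enpp3 -0.40 on 37 and 37.

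**Figure D5:**
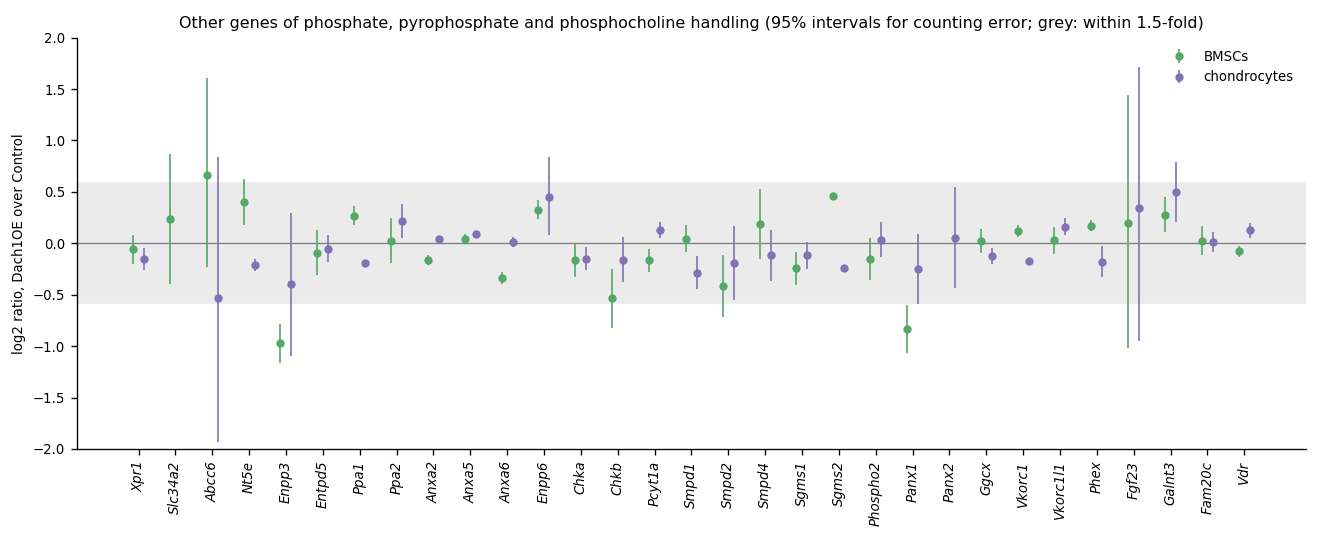
Log2 ratio of the level in Dach1OE over Control for the other genes of phosphate, pyrophosphate and phosphocholine handling with at least 20 UMIs, over all BMSCs (green) and all chondrocytes (violet), with 95% intervals for counting error and the range within 1.5-fold in grey. Enpp3 and Panx1 lie below the grey band in BMSCs, and Abcc6 just above it with an interval that includes 0.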

How the data were processed

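Each deposited table lists, per cell and gene, reads and UMI counts, raw and after recursive substitution error correction (RSEC), which the authors made in version 1.11 of the BD Rhapsody WTA pipeline (per the file headers, with GRCm38 and GENCODE vM19, introns counted). The methods state another pipeline version. The RSEC-adjusted counts were used, with no normalization in the files.

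The study's limits on cells were applied, 500 to 6000 genes and a mitochondrial share below 25%. Clusters were built in Seurat 5.3.0 (R 4.3.3) on 2000 variable genes and 30 components at resolution 0.5, and at 0.4 within BMSCs and chondrocytes, without the members, the wider pathway list (42 genes together) and 97 cell cycle genes. A cluster took a name with at least 3 markers at 1.5-fold in 25% of its cells, and clusters led by another class or doublet-like by Scrublet (scanpy 1.11.5) were set aside (506 and 527 BMSCs). Of these BMSCs, 296 and 318 formed a cluster with 4 osteoblast markers beside Col2a1, Col9a1 and Hapln1, and are not in the osteoblast values. A cluster with these markers was named osteoblast at resolution 0.2. The largest chondrocyte cluster set aside, with endothelial markers, had 358 and 441 cells. UMIs were summed per library and group of cells, genes with at least 20 UMIs counted as measured, and past 1.5-fold between libraries (2-fold between subtypes) counted as called. TMM factors came from edgeR 4.0.16. Cells were split by Xist and 4 Y-linked genes. Statistics used Python 3.11.15, numpy 2.4.6 and scipy 1.17.1. The summing and ratio steps were tested on simulated data.

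Named were all members, the 5 genes of the wider list with the largest ratio in BMSCs and in chondrocytes (at least 100 UMIs), the 3 genes closest to each member by Pearson r of log2(level + 1) (1 of them is not reported here), Dach1, and markers where a class is checked. Abcc6, Smpd4 and Abi3, and the values of subtypes and clusters that the text singles out, were chosen after their values were seen. The members and lists were chosen with earlier results of these data known, and the alternatives for single ratios in mpMSCs, prehypertrophic and hypertrophic chondrocytes and endothelial cells, and those with the clusters set aside put back, were chosen after seeing the data. Alternatives were raw UMIs, TMM, other limits on cells and genes, other resolutions, naming cell by cell, removal of Scrublet-marked cells, either sex alone and equal weights of subtypes. UMIs are single molecules, but cells of 1 library are not replicates, and the depth per group of cells sets the intervals.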

Additional observations from a re-analysis of the deposited data

Results flagged for a closer look

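Some members had ratios of opposite sign in groups of cells under the same comparison, with intervals for counting error that did not reach 0. None of these differences was tested, as there was 1 library per group. Panx3 in osteoblasts had a log2 ratio of -0.49 (-0.65 to -0.34) in cells with Xist and 0.38 (0.19 to 0.57) in cells with Y-linked UMIs. The osteoblast cluster with the higher Panx3 level held 234 of 526 Control and 211 of 583 Dach1OE osteoblasts with Xist. Of those with Y-linked UMIs it held 113 of 259 and 233 of 457. The part of these shares in the Panx3 ratios was not tested. Smpd3 had 0.14 (0.09 to 0.19) in osteoblasts and -0.19 (-0.20 to -0.17) in chondrocytes, and among chondrocyte clusters 0.068 (0.02 to 0.12) in cluster 1 and -0.72 (-0.87 to -0.58) in hypertrophic cluster 6. The shares of the chondrocyte clusters, which differ between the libraries, go into the value over all chondrocytes, and their part was not tested. Mgp had 0.37 (0.04 to 0.72) in osteoblasts, where its level was below that of haematopoietic cells, and -0.38 (-0.40 to -0.37) in chondrocytes, and 0.31 (0.26 to 0.36) in cluster 6 against -0.87 (-0.90 to -0.84) in the proliferating cluster 4. Enpp1 had 0.77 (0.58 to 0.97) in mpMSCs and -1.10 (-1.58 to -0.63) in osteoblasts, where its levels were below those of haematopoietic cells and the ratio was -1.35 in cells with Xist and -0.17 (-1.20 to 0.91) in cells with Y-linked UMIs.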

How the results depend on the processing

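No paired analysis was possible because there was 1 library per group. Of the single ratios under the alternatives, 281 moved by less than the counting interval, 78 moved further and 6 whose interval had excluded 0 changed sign. Among those that moved, Alpl over BMSCs (-0.02, interval including 0) ran from -0.12 to 0.18. Enpp1 over BMSCs (-0.20) was 0.0033 with TMM, 0.12 in cells with Y-linked UMIs and 0.25 with equal weights of subtypes. Panx3 over BMSCs (0.24) was -0.10 in cells with Xist, Mgp over osteoblasts (0.37) was -0.041 with cells named one by one, and Mgp over chondrocytes (-0.38) was 0.0078 in cells with Y-linked UMIs. The members past 1.5-fold over BMSCs (3) were 1 with cells named one by one, 1 at resolution 0.2 and 0 with equal weights, and 2 under several others. Smpd3 and Slc20a1 stand at the limit, and Slc20a2 (-0.81) was -0.44 with equal weights. Over the 6 BMSC subtypes the count (12) was 6 with cells named one by one and 7 at resolution 0.2. Over chondrocytes the count (0) was 1 in cells with Xist, and for the wider list in BMSCs (3) it was 5 with TMM. The count of members 2-fold from the other cells of their class, over the 6 BMSC subtypes and the named chondrocyte groups with both hypertrophic clusters as 1 (42), was 29 to 43. The share of Control osteoblasts with an Alpl UMI (29.8%) was 81.7% without thinning. Naming one by one and the other resolutions gave no value for endothelial cells. The causes were not tested. Low counts limit Phospho1, Slc20a1 in BMSCs and the smallest clusters, and free RNA may limit levels near those of haematopoietic cells.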
